A study of Mus musculus with 6 samples.

Results

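Macroautophagy wraps cytoplasm in a double membrane, the autophagosome, and delivers it to the lysosome, and mitophagy is the form of it that removes mitochondria. The 44 genes described here encode that machinery. They are the initiation kinases, the lipid kinase complex, the lipid transfer proteins, the conjugation enzymes, the Atg8 proteins and their proteases, the cargo receptors, the mitophagy factors and the transcription factors Tfeb and Tfe3. They were chosen by name and include Rnf41 and Usp8, the partners of Clec16a in mitophagy, and all 44 were found among the 56413 gene symbols of the count table. The samples were fresh total mouse splenocytes, 3 libraries labelled wild-type (WT) and 3 labelled Top3b-KO, with ribosomal RNA removed before total RNA sequencing. Top3b encodes topoisomerase III-beta, and the labels describe the knockout no further than its name. Strain, age and sex stand in none of the sources used here, and it is not said whether the libraries came from separate animals, so p-values measure the spread between these libraries.

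Total counts were 15262060 to 15860287 in WT and 9941014 to 25473404 in Top3b-KO, where replicate 3 was the shallowest. Top3b was at 91.0 ± 4.06 CPM in WT against 49.8 ± 1.66 in the knockout (SD, n = 3; log2 fold change -0.87, adjusted p 5.8e-06 by edgeR), and a count per gene does not show which exons the remaining reads cover. CPM are counts per 1000000 counts of the library, scaled between libraries by edgeR's TMM factors. B cell markers (7 of 7 genes) summed to 3513 to 4122 CPM in WT against 3709.9 to 3866 in the knockout, and T cell markers (9 of 9) to 1569.5 to 1829.7 and 1753 to 1797 CPM, so both main lymphocyte types of the spleen were present. Neutrophil markers (10 of 10) ranged from 679 to 1165 CPM in WT and, in the knockout, from 494 to 1587 CPM, and erythroid markers (11 of 12 found) from 1054 to 1839 and from 849.5 to 1250.0 CPM. Of the erythroid markers 10 of 11 lay below 0, with a median log2 fold change of -0.37 and 0 at an unadjusted p under 0.05 by edgeR. Red pulp macrophage markers (11 of 11) summed to 639.7 to 713 CPM in WT and, in the knockout, to 559.6 to 648 CPM, with 10 of 11 genes below 0, a median log2 fold change of -0.11 and 4 at an unadjusted p under 0.05 (36.4%, against 5.52% of all genes; 3 lower, 1 higher) but 0 past adjustment by edgeR. Plasma cell markers (5 of 5) summed to 254 to 368 and 225 to 359 CPM, all 5 below 0 and 0 at an unadjusted p under 0.05. Markers of pancreatic acinar cells and of hepatocytes, 5 genes each, summed to at most 1.26 CPM in any library, and 2 of the hepatocyte markers were at 0 throughout. These are bulk samples, in which fewer cells of a type and less RNA per cell cannot be told apart.

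In the pathway, nutrient or energy stress releases the Ulk1 kinase complex, which activates the class III phosphatidylinositol 3-kinase complex around Beclin 1. Lipids then reach the growing membrane through Atg2 and Atg9 proteins, and a pair of ubiquitin-like conjugation reactions attaches Atg8 proteins (LC3 and GABARAP) to it, where cargo receptors dock. Tfeb and Tfe3 carry the programme to the nucleus by binding an E-box variant in promoters of lysosomal and autophagy genes. In lymphoid tissue the pathway is known for its part in the survival of memory B cells, plasma cells and T cells, and in red cell precursors Bnip3l clears mitochondria.

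Since Tfeb and Tfe3 are members, the letters of their binding element were looked for in the other members' promoters and in their own, a search chosen after the RNA values had been seen. The RefSeq table (build GRCm38.p6) held promoters, from 250 bases before to 50 after a gene's start, for 37 of the 44 genes, and not for Atg12, Atg16l1, Becn1, Bnip3l, Map1lc3a, Pik3c3 and Rb1cc1. The core TCACGTGA and the plain E-box CACGTG inside it each read the same on both strands, and every match to the first is also a match to the second. CACGTG was found for 5 of the 37 genes (13.5%; 8.09% of the 27025 genes with a promoter in the table), namely Atg3, Atg5, Atg7, Atg14 and Bnip3. TCACGTGA was found for 1, Atg3 (2.70%; 1.12% of all genes). Shown are the 250 bases before the start for Atg3, which holds the longer element, and for Atg7 and Bnip3, whose genotypes did not overlap in the RNA data; capitals mark CACGTG or, in Atg3 at position -72, TCACGTGA. The windows are chr16:45158579-45158828 (+ strand), chr6:114670846-114671095 (+ strand) and chr7:138909507-138909756 (- strand).
Atg3: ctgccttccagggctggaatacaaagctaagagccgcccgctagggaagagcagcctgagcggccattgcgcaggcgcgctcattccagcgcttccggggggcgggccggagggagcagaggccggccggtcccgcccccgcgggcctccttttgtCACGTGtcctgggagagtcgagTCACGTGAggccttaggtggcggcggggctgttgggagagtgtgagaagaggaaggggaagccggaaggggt
Atg7: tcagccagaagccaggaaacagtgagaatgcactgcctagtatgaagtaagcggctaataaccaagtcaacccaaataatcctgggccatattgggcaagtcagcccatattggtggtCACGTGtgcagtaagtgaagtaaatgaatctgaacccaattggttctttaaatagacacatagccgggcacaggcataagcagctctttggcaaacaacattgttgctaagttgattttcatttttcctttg
Bnip3: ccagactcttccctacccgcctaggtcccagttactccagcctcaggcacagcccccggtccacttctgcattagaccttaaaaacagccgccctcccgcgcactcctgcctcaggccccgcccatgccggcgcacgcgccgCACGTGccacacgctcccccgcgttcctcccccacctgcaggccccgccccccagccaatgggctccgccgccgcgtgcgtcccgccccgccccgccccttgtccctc
Atg3 carries a further CACGTG upstream of the longer element. In Atg7 the E-box begins 132 bases before the start and in Bnip3 108 bases before it, and the Atg7 window is poorer in G and C (43.2%) than those of Atg3 (68.0%) and Bnip3 (72.4%). A match describes letters only. In the RNA data the 3 genes had log2 fold changes of -0.023 (Atg3), 0.14 (Atg7) and -0.16 (Bnip3), Top3b-KO over WT. Atg5 and Atg14, which hold CACGTG at positions -14 and -1, had -0.051 and -0.0045 and overlapped between genotypes. No window of Tfeb itself held either string. Nor did those of Gabarap, Wipi2, Usp8 and Pik3r4, whose genotypes, like those of Tfeb, did not overlap either.

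None of the 44 genes changed past the threshold between genotypes. All 44 passed the filter on low counts, and in edgeR's quasi-likelihood F test 0 of them had a Benjamini-Hochberg adjusted p under 0.05 over 18716 genes, where 0.0107% of all genes did (0.00534% in each direction). At an unadjusted p under 0.05 by edgeR there was 1 member, Tfeb (2.27% of members, against 5.52% of all genes, 3.69% lower and 1.83% higher). DESeq2 also gave Tfeb alone, where 624 of 18716 genes were under 0.05. By limma-voom there were 3 members, where 1061 of 18716 genes were under 0.05. The libraries of the genotypes did not overlap for 7 members (15.9%, against 11.0% of all genes), with Top3b-KO above WT for 3, Pik3r4, Atg7 and Usp8 (all genes 5.39%), and below it for 4, Wipi2, Gabarap, Bnip3 and Tfeb (all genes 5.63%). The median log2 fold change of the members was -0.020 (all tested genes -0.0029), 28 lay below 0 and 16 (36.4%, against 49.1% of all genes) above, and single values ran from -0.26 for Tfeb to 0.14 for Atg7.

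How small a change these libraries allow is given by the intervals. For 42 of 44 members the 95% interval of the fold change lay inside 1.5-fold in either direction, which held for 67.0% of all tested genes and for 98.2% of those at 10 CPM or more. All 39 members at that level were inside. The members outside were Wipi1, whose interval for the ratio of Top3b-KO to WT ran 0.607 to 1.17, and Bnip3, 0.661 to 1.22, with 36 to 66 and 23 to 57 counts per library. The summed level of the 44 genes was 3068 to 3198 CPM in WT against 3109.9 to 3142 in the knockout, so the Top3b-KO libraries lay within the WT range.

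**Figure D1:**
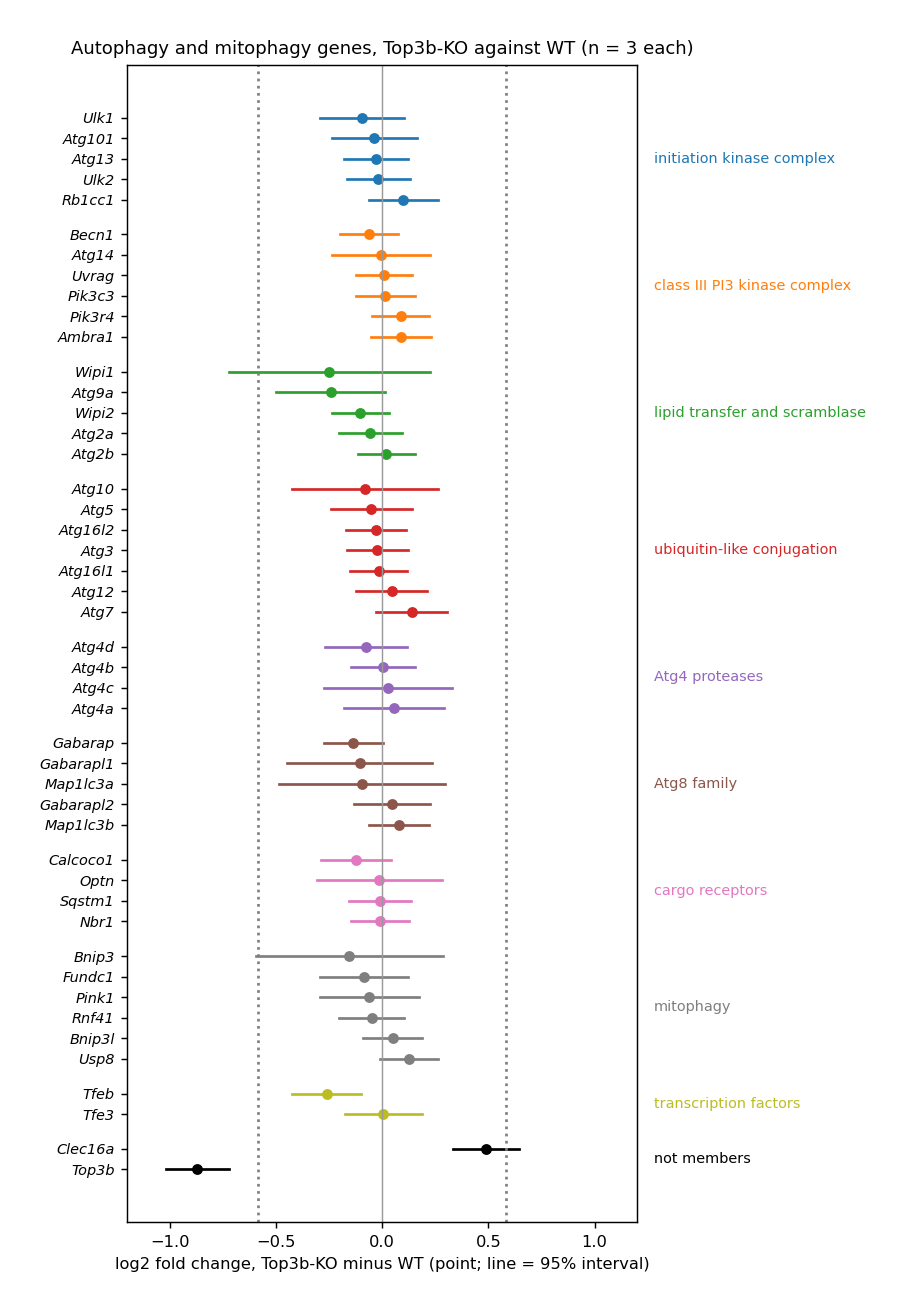
Log2 fold change of each of the 44 genes, Top3b-KO minus WT (x axis), with its 95% interval from edgeR's quasi-likelihood fit, ordered by role; dotted lines mark 1.5-fold, and Clec16a and Top3b are added for scale. Intervals of 42 members lie between the dotted lines, Wipi1 and Bnip3 reach past the lower one, and Tfeb is the member whose interval does not include 0.

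Tfeb, the master transcription factor of lysosomal and autophagy genes, was at 75.7, 82.0 and 71.8 CPM in the WT libraries and, in the Top3b-KO libraries, at 67.9, 58.7 and 65.1 CPM. The lowest WT library thus lay above the highest Top3b-KO library, with Top3b-KO replicate 2 lowest of all. With means of 76.5 ± 5.14 CPM and 63.9 ± 4.69 CPM (SD, n = 3), the log2 fold change was -0.26 (SE 0.078; ratio 0.835, 95% interval 0.745 to 0.934) and the unadjusted p 0.0035, rank 102 of 18716 genes. It did not pass after adjustment over all genes (adjusted p 0.63 by edgeR). The red pulp macrophage marker sum, with no marker at 0 throughout, was 713, 642 and 639.7 CPM in WT against 648, 616 and 559.6 in the knockout. It was lower on average like Tfeb but with overlap. Plasma cell markers also lay below 0, as did 10 of 11 erythroid markers (median log2 fold change -0.37) and 6 of 7 B cell markers (-0.028). Of the T cell markers 8 of 9 lay above 0 (median 0.061), and neutrophil markers were split, 5 above and 5 below. The erythroid sum was highest in WT replicate 2 (1839 CPM) and lowest in Top3b-KO replicate 2 (849.5 CPM), the libraries where Tfeb was highest and lowest. The macrophage sum was instead highest in WT replicate 1 and lowest in Top3b-KO replicate 3. The part of these cell types in the Tfeb values was not tested. Leaving out Top3b-KO replicate 2 gave -0.19, the value nearest 0, and adjusted p ranged from 0.093, without WT replicate 3, to just under 1 over 15 other settings. Tfe3, the close relative of Tfeb that binds the same element, was at 39.6, 39.5 and 36.5 CPM in WT and, in Top3b-KO, at 39.9, 34.8 and 41.9 CPM. Its genotypes overlapped, with a log2 fold change of 0.0060 (SE 0.087; 95% interval of the ratio 0.885 to 1.14). Whether Tfeb and Tfe3 differ in their response was not tested. Per kilobase of exon, Tfeb was at 13.5 in WT and 11.3 in Top3b-KO, above Tfe3 at 4.16 and 4.20 CPM per kilobase.

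**Figure D2:**
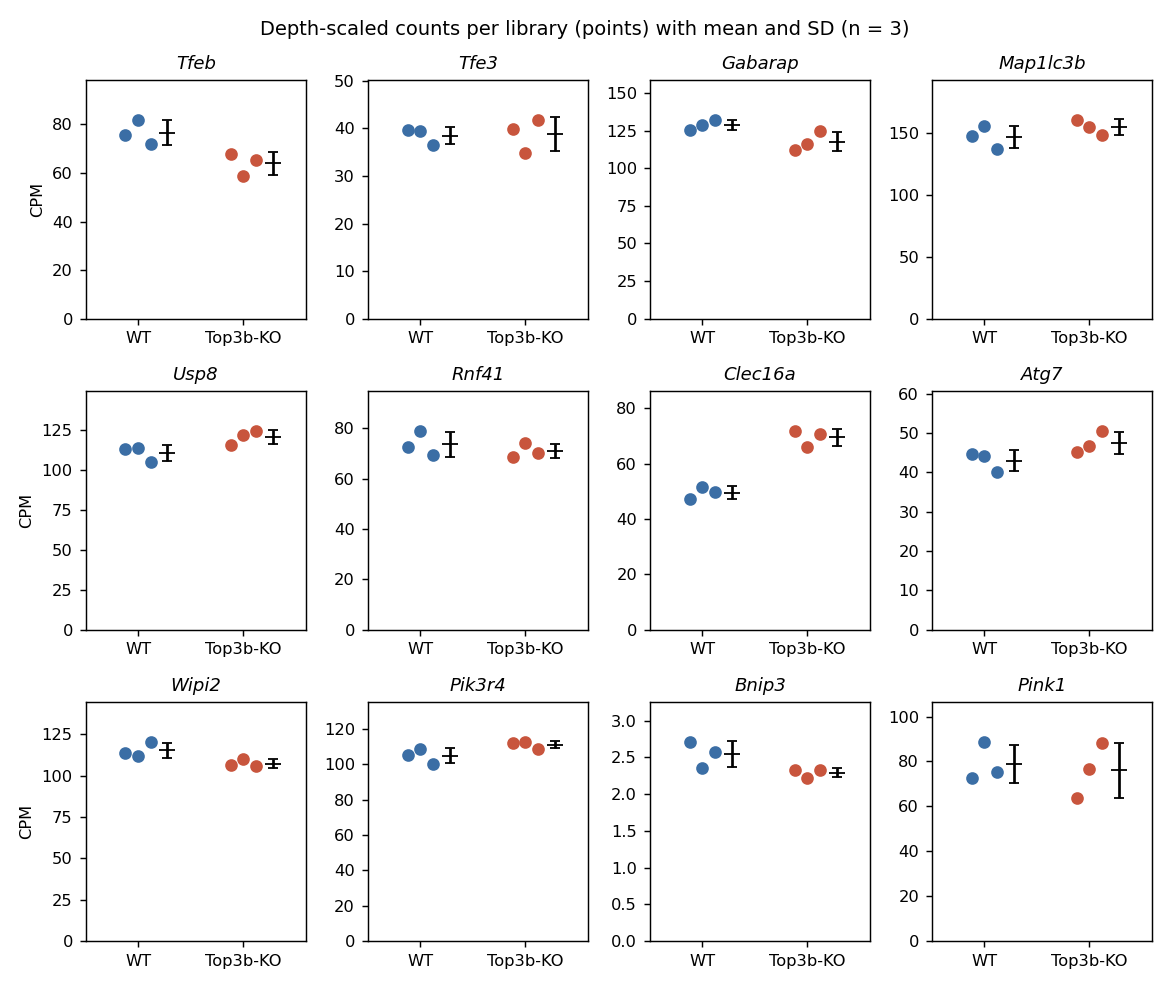
CPM in each library (points, y axis from 0) with mean and SD beside them (n = 3), for Clec16a and 11 members: those whose genotypes do not overlap and Tfe3, Map1lc3b, Rnf41 and Pink1. WT points lie above Top3b-KO points for Tfeb, Gabarap, Wipi2 and Bnip3 and below them for Usp8, Atg7, Pik3r4 and Clec16a; for Rnf41, Tfe3, Map1lc3b and Pink1 they overlap.

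In the initiation complex, 0 of 5 genes had an unadjusted p under 0.05, and the median log2 fold change was -0.031. Ulk2, one of the alternative kinases, had among the smallest spreads of all members, at 57.7, 55.7 and 59.5 CPM in WT and, in Top3b-KO, at 56.9, 57.9 and 55.8 CPM. Its values lay within 4 CPM of each other across all 6 libraries, and the log2 fold change was -0.018 (SE 0.071). Ulk1 (log2 fold change -0.093), the scaffold Rb1cc1 (0.10), and the adaptors Atg13 (-0.031) and Atg101 (-0.037) all overlapped between genotypes. Ulk1 and Atg101 were each lowest in WT replicate 3, at 30.5 and 27.8 CPM, the WT library in which Rb1cc1 was highest, at 144 CPM.

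The class III phosphatidylinositol 3-kinase complex marks the site where the membrane grows. Its regulatory subunit Pik3r4 was at 106, 109 and 100.3 CPM in WT and, in Top3b-KO, at 112, 113 and 109 CPM, so the groups were separated by a fraction of 1 CPM. With means of 105 ± 4.28 CPM and 111 ± 2.06 CPM (SD, n = 3), the log2 fold change was 0.086 (SE 0.064; adjusted p 0.92 by edgeR). Becn1, the Beclin 1 gene, was at 103, 99.3 and 95.5 CPM in WT and, in Top3b-KO, at 95.8, 93.0 and 96.2 CPM. The groups overlapped and the log2 fold change was -0.062 (SE 0.065). Of the Becn1 exon length, 43.93% is shared with Cntd1 on the opposite strand, at 2.87 ± 0.492 CPM in WT against 3.61 ± 0.460 in the knockout. The catalytic subunit Pik3c3 (0.015), the autophagy-specific subunit Atg14 (-0.0045), the endosomal subunit Uvrag (0.010) and the regulator Ambra1 (0.089) overlapped, log2 fold changes in brackets, so that 0 of 6 had an unadjusted p under 0.05.

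Lipid supply had the lowest median among the groups of more than 2 genes, -0.10, with 4 of 5 genes below 0 and 0 at an unadjusted p under 0.05. Wipi2, which reads the lipid mark and recruits the conjugation machinery, was at 114, 112 and 120.4 CPM in WT and, in Top3b-KO, at 106, 110.1 and 106 CPM, without overlap. With means of 115 ± 4.60 CPM and 107 ± 2.45 CPM (SD, n = 3), its log2 fold change was -0.10 (SE 0.064; adjusted p 0.91 by edgeR). Wipi1, its relative, was at 2.78, 3.34 and 3.46 CPM in WT and, in Top3b-KO, at 2.70, 2.10 and 3.64 CPM. Top3b-KO held both the highest and the lowest value, and the log2 fold change of -0.25 (SE 0.22) became -0.41 when Top3b-KO replicate 3 was left out and -0.051 when replicate 2 was. The scramblase gene Atg9a, at 14.3, 15.2 and 15.4 CPM in WT and, in Top3b-KO, at 12.2, 11.2 and 15.2 CPM, overlapped through Top3b-KO replicate 3 and had a log2 fold change of -0.24 (SE 0.12, unadjusted p 0.063 by edgeR). The lipid transfer genes Atg2a and Atg2b had log2 fold changes of -0.056 and 0.019.

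Among the conjugation genes, 0 of 7 had an unadjusted p under 0.05 and 5 lay below 0. Atg7, the E1-like enzyme that serves both conjugation reactions, was at 44.7, 44.2 and 40.0 CPM in WT and, in Top3b-KO, at 45.1, 46.7 and 50.6 CPM. WT replicate 3 was lowest and Top3b-KO replicate 3 highest, and the groups did not overlap. With means of 43.0 ± 2.58 CPM and 47.5 ± 2.80 CPM (SD, n = 3), the log2 fold change was 0.14 (SE 0.081; 95% interval of the ratio 0.979 to 1.24; adjusted p 0.91 by edgeR), and it was 0.087 without WT replicate 3. Atg16l1, which sets where the Atg12-Atg5 conjugate acts, had the smallest within-genotype SD of all members, 0.026 on the log2 scale, at 101, 97.0 and 97.9 CPM in WT and, in Top3b-KO, at 95.5, 98.1 and 98.5 CPM. The groups overlapped and its log2 fold change was -0.017 (SE 0.064). The E2-like enzymes Atg3 and Atg10 had -0.023 and -0.081, the conjugate's parts Atg5 and Atg12 had -0.051 and 0.045, and the paralog Atg16l2 had -0.028.

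The Atg4 proteases trim Atg8 proteins before conjugation and release them afterwards. Of the 4 genes, 0 had an unadjusted p under 0.05 and 0 separated by genotype, with log2 fold changes of 0.056 for Atg4a, 0.0042 for Atg4b, 0.027 for Atg4c and -0.076 for Atg4d. Atg4b, the most active of them on LC3, was at 57.1, 54.5 and 52.7 CPM in WT and, in Top3b-KO, at 54.7, 55.8 and 54.3 CPM, a spread of under 5 CPM over all 6 libraries.

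For the Atg8 proteins, which coat the autophagosome, 0 of 5 genes had an unadjusted p under 0.05. Gabarap was at 126, 129 and 132 CPM in WT and, in Top3b-KO, at 112, 116 and 125 CPM. Every Top3b-KO library lay below every WT library, the closest pair being WT replicate 1 and Top3b-KO replicate 3. With means of 129 ± 3.33 CPM and 118 ± 6.34 CPM (SD, n = 3), the log2 fold change was -0.14 (SE 0.066; 95% interval of the ratio 0.828 to 1.002), unadjusted p 0.053, adjusted p 0.90 by edgeR. Map1lc3b, the LC3 gene used most often as an autophagosome marker, was at 147, 155 and 137 CPM in WT and, in Top3b-KO, at 161, 155 and 149 CPM. Its groups overlapped, with Top3b-KO replicate 1 highest, and the log2 fold change was 0.081 (SE 0.067).

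Gabarapl2 was at 43.6, 46.5 and 49.2 CPM in WT and, in Top3b-KO, at 52.3, 47.7 and 42.9 CPM, where both the highest and the lowest library were Top3b-KO, and its log2 fold change was 0.045 (SE 0.085). The low-level genes varied most: Map1lc3a, at 7.55, 5.77 and 4.96 and 6.92, 4.71 and 5.36 CPM, and Gabarapl1, at 9.69, 7.08 and 7.29 and 7.45, 8.52 and 5.87 CPM in WT and Top3b-KO. Their within-genotype SDs on the log2 scale were 0.27 and 0.25, among the 3 largest of the members, and their log2 fold changes of -0.10 (SE 0.19) and -0.11 (SE 0.16) were smaller than that. Both were highest in WT replicate 1.

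Set against each other without regard to length, Map1lc3b stood above Gabarap, at 147 against 129 CPM in WT and 155 against 118 in the knockout. The lengths used here merge all annotated exons of a gene, 7517 bases for Map1lc3b and 1844 for Gabarap, so the shares depend on them. Per kilobase of exon, Gabarap made up 59.0 ± 1.22% of the family's sum in WT against 56.3 ± 3.24% in the knockout. Gabarapl2 and Map1lc3b followed, at 16.8 ± 0.925% and 16.5 ± 1.03% in WT against 18.1 ± 1.71% and 18.2 ± 0.651% in the knockout, so their order was not separable. Map1lc3a held 4.36 ± 0.976% and 4.23 ± 0.814% and Gabarapl1 3.36 ± 0.629% and 3.19 ± 0.594% (SD, n = 3). The share of Map1lc3b was the one without overlap, at 16.6, 17.4 and 15.4% in WT against 18.7, 18.4 and 17.5% in the knockout. Shares are parts of a whole, so that of Map1lc3b also depends on Gabarap, and the CPM of Map1lc3b itself overlapped between genotypes. A two-sided exact permutation test gave p = 0.1, the smallest that 3 against 3 allow, which any groups without overlap give. After Benjamini-Hochberg adjustment over the 5 shares it was 0.5.

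Cargo receptors bind ubiquitin or other marks on one side and Atg8 proteins on the other. Of 4 genes, 0 had an unadjusted p under 0.05, all 4 lay below 0 and all overlapped between genotypes. Sqstm1, which encodes p62, was at 190.1, 199 and 168 CPM in WT and, in Top3b-KO, at 184, 185 and 184 CPM. The Top3b-KO libraries lay within 2 CPM of each other and inside the WT range, and the log2 fold change was -0.011 (SE 0.069; 95% interval of the ratio 0.897 to 1.10). Of its exon length, 17.28% overlaps Mrnip on the opposite strand, a gene at 4.27 ± 0.417 CPM in WT against 4.06 ± 0.304 in the knockout. Nbr1 (-0.0098), Optn (-0.013) and Calcoco1 (-0.12), receptors for peroxisomes, mitochondria or the endoplasmic reticulum among other cargo, gave the rest of the group's range of log2 fold changes.

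**Figure D3:**
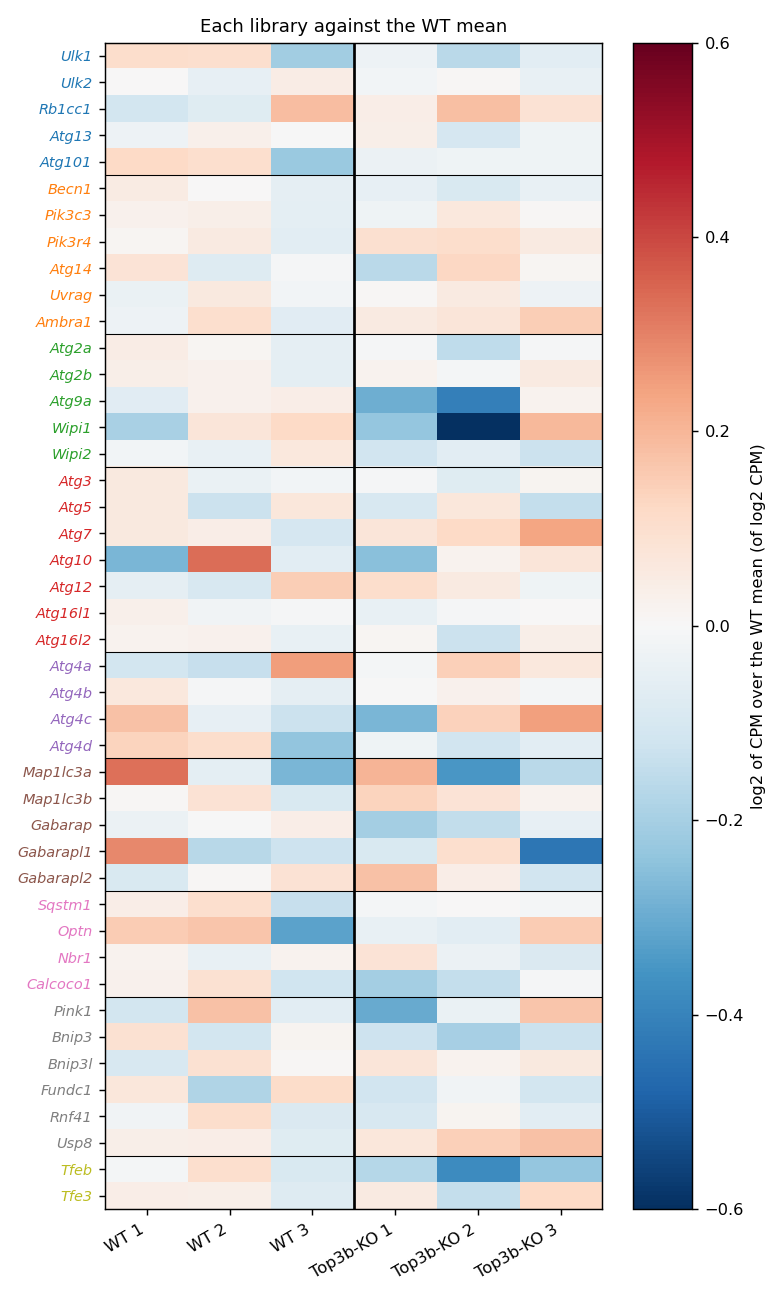
Each of the 44 genes (rows, by role group) in each of the 6 libraries (columns), coloured by log2 CPM minus the mean of the WT libraries. Of 264 values 9 lie beyond 0.3 in either direction, 4 of them in Top3b-KO replicate 2 and 1 in each other library, and the strongest colour is Wipi1 in Top3b-KO replicate 2, at -0.598.

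Rnf41 and Usp8 work with Clec16a: Rnf41 is the ubiquitin ligase that Clec16a stabilises, and Usp8 the deubiquitinase that acts on Rnf41. Clec16a was the single gene beside Top3b past the threshold over all genes, at 47.1, 51.6 and 49.7 CPM in WT and, in Top3b-KO, at 71.8, 66.0 and 70.5 CPM (log2 fold change 0.49, SE 0.074, adjusted p 0.028 by edgeR). That adjusted p was over 0.05 without any of the libraries except WT replicate 3, at 0.058 to 0.30. Clec16a and Top3b both lie on chromosome 16, and the part of this shared position in the Clec16a values was not tested. Usp8 was at 113, 113 and 105 CPM in WT and, in Top3b-KO, at 116, 121 and 124 CPM. All Top3b-KO libraries lay above all WT libraries, nearest between Top3b-KO replicate 1 and WT replicate 2. With means of 110.2 ± 4.88 CPM and 120.5 ± 4.45 CPM (SD, n = 3), its log2 fold change was 0.13 (SE 0.066; 95% interval of the ratio 0.992 to 1.201), unadjusted p 0.069, adjusted p 0.91 by edgeR. Rnf41 was at 72.5, 79.1 and 69.4 CPM in WT and, in Top3b-KO, at 68.7, 74.3 and 70.3 CPM, with overlapping groups and WT replicate 2 highest. Its log2 fold change was -0.050 (SE 0.073; 95% interval of the ratio 0.869 to 1.07), and this interval lies below that of Clec16a, 1.26 to 1.56. Per kilobase of exon, Usp8 stood at 26.3 and 28.7, Rnf41 at 16.5 and 16.0, and Clec16a at 5.91 and 8.30 CPM per kilobase in WT and Top3b-KO.

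Pink1, the kinase that marks damaged mitochondria for removal, was at 72.8, 88.8 and 75.1 CPM in WT and, in Top3b-KO, at 63.7, 76.5 and 88.2 CPM. The groups overlapped widely, Top3b-KO replicate 1 being lowest and WT replicate 2 and Top3b-KO replicate 3 highest. The log2 fold change was -0.061 (SE 0.11). The neutrophil marker sum was also lowest in Top3b-KO replicate 1 (494 CPM) and highest in WT replicate 2 (1165 CPM) and Top3b-KO replicate 3 (1587 CPM), and its part in the Pink1 values was not tested.

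Bnip3l, the mitophagy receptor of maturing red cells, was at 108, 123 and 116 CPM in WT and, in Top3b-KO, at 121, 117 and 119.9 CPM. The Top3b-KO values lay inside the WT range, with a log2 fold change of 0.049 (SE 0.067), while erythroid markers summed to 1054, 1839 and 1213 CPM in WT against 1250.0, 849.5 and 944 in the knockout. WT replicate 2 was highest in both. The part of red cell precursors in the Bnip3l values was not tested. The processed copy Bnip3l-ps, which shares 20.8% of the 50-base stretches of Bnip3l, had 5 to 16 counts per library. Bnip3, its hypoxia-induced relative, was at 2.71, 2.36 and 2.58 CPM in WT and, in Top3b-KO, at 2.33, 2.22 and 2.33 CPM. The groups were apart by under 0.1 CPM, and the log2 fold change was -0.16 (SE 0.21; adjusted p 0.96 by edgeR). Of the 50-base stretches of Bnip3, 47.2% also match other annotated transcripts on either strand, so its counts are uncertain. Fundc1, a hypoxia-regulated receptor of the outer membrane, was at 25.2, 21.2 and 25.9 CPM in WT and, in Top3b-KO, at 22.2, 23.7 and 22.3 CPM, and its log2 fold change was -0.084 (SE 0.099).

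Further genes of the pathway, 113 listed by role, showed 1 call among 110 tested, Clec16a (0.0107% of all genes passed). The list was made with earlier results of these data known, so the call of Clec16a does not describe the list. At an unadjusted p under 0.05 by edgeR there were 4 (3.64%, against 5.52% of all genes), which were Clec16a, Mfn1, Bcl2 and Akt1s1. Genotypes did not overlap for 12 of the 110 (10.9%, against 11.0% of all genes), and the median log2 fold change of the 110 was -0.013. Among nutrient and energy signalling genes 0 of 34 passed by edgeR, and those with the smallest p were Akt1s1, an inhibitor in the mTOR complex, at -0.27 (SE 0.10), and Deptor, another mTOR inhibitor, at -0.21 (SE 0.15). Akt1s1 was at 25.6, 28.6 and 22.9 CPM in WT and, in Top3b-KO, at 22.6, 19.7 and 21.9 CPM, separated by under 1 CPM, with an adjusted p of 0.84 by edgeR. Of 14 genes of phagophore membrane and lipid supply 0 passed, with Bcl2, which restrains Beclin 1, at a log2 fold change of 0.15 (SE 0.072) and Rubcn, an inhibitor of the Uvrag complex, at -0.10 (SE 0.069).

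Other cargo receptors and regulators gave 0 of 13, with Hdac6, the aggresome deacetylase, at -0.21 (SE 0.10) and the ferritin receptor Ncoa4 at -0.11 (SE 0.071). In fusion with the lysosome 0 of 21 passed, with Mon1a, part of the exchange factor of Rab7, at -0.24 (SE 0.12) and the SNARE gene Stx17 at 0.16 (SE 0.083). At an unadjusted p under 0.05 the counts were 0 in both of these groups, 1 in each of the preceding pair and 2 among other mitophagy genes, of which 1 of 28 passed. The second of those, Mfn1, a mitofusin that joins outer mitochondrial membranes, was at 37.6, 38.4 and 39.2 CPM in WT and, in Top3b-KO, at 41.7, 45.5 and 43.1 CPM (log2 fold change 0.18, SE 0.078; adjusted p 0.88 by edgeR). It was picked out after its values were seen.

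The members covered a 98.2-fold range of levels per kilobase of exon, from 0.681 for Wipi1 to 66.9 for Gabarap (CPM per kilobase, mean of 6 libraries, exon lengths from GENCODE M21). The length merges all annotated exons of a gene and can exceed that of the RNA expressed, so levels and their order depend on it. Gabarap and Sqstm1, at 55.1, stood above the rest, followed by Bnip3l (30.4), Pink1 (29.0), Usp8 (27.5) and Nbr1 (27.1). The gaps between these 4 neighbours were smaller than the SD of at least 1 of each pair in WT (1.95 for Bnip3l, 3.23 for Pink1, 1.16 for Usp8 and 0.688 for Nbr1). The order of adjacent genes was thus not separable by this measure. Bnip3l, at 29.9 in WT and 30.9 in Top3b-KO, lay above Usp8 (26.3 and 28.7) and Nbr1 (27.2 and 27.0) in both genotypes. In all, 13 genes reached 20 on this scale. Within genotypes the members' median SD was 0.087 on the log2 scale, against 0.144 for all tested genes and 0.098 for those at 10 CPM or more. The extremes were Atg16l1 (0.026), Ulk2 (0.038) and Becn1 (0.041) on the steady side and Map1lc3a (0.27), Wipi1 (0.26) and Gabarapl1 (0.25), 3 of the 5 members under 10 CPM, on the other.

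**Figure D4:**
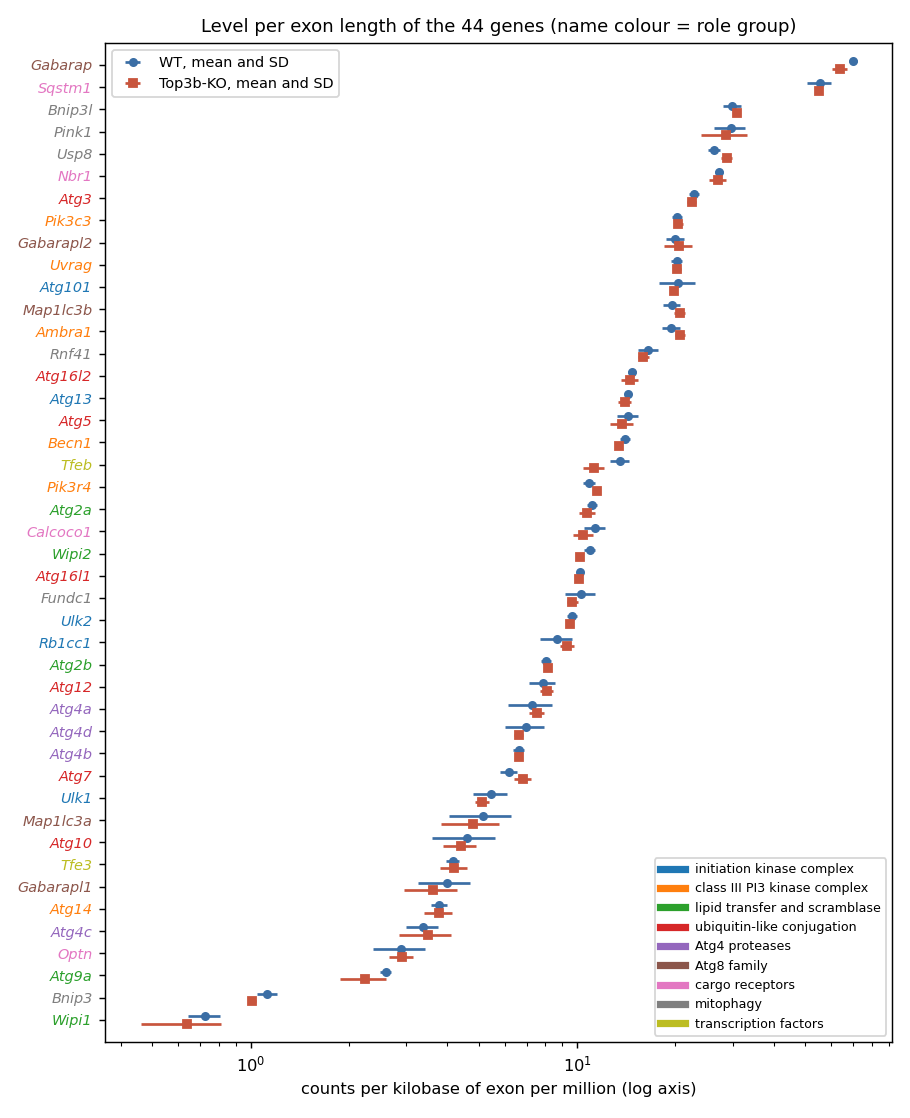
Level of each of the 44 genes in CPM per kilobase of exon (x axis, logarithmic), with mean and SD for WT (circles) and Top3b-KO (squares), n = 3 each, ordered by level and coloured by role. The levels run from 0.681 for Wipi1 to 66.9 for Gabarap, and WT and Top3b-KO symbols lie beside each other at every level.

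For some members the deposited counts may include reads of another gene. In GENCODE M21, exons of 14 members overlap another gene, for 13 of them on the opposite strand, and for 7 this covers over 10% of the exon length. With both strands searched, at least 20% of the 50-base stretches match another gene's transcripts for Atg4a, Atg9a, Becn1, Bnip3, Bnip3l and Gabarapl1, and 18 members share none. For Becn1 (36.8%, Cntd1) and Gabarapl1 (23.1%, 1700101I11Rik) the other gene lies on the opposite strand. For Atg4a the copy is Atg4a-ps (51.2% shared), which had 0 to 3 counts per library. Atg4d shares 19.34% of its exon length with Kri1 on the opposite strand. Kri1, at 55.3 ± 6.23 CPM in WT and 56.7 ± 6.44 in the knockout, lay above Atg4d, at 50.7 and 48.1 CPM. The sources used here do not say how such reads were assigned, and Tfeb, Gabarap, Usp8, Rnf41 and Atg7 are among the 18.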

How the data were processed

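Expected counts per gene symbol in 6 total RNA libraries, 3 WT and 3 Top3b-KO, were deposited by the authors, who aligned reads with STAR to mm39, as the submitters' processing notes list. No source used here gives the counter, its strand setting, the annotation or how multi-mapped reads were handled. The labels give read lengths of 150 and 101 bases and a pair of stranded kits, so the preparation is not settled. Values were rounded (72 symbols, no member, were not whole within 1e-06). All 6 count columns were used.

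Genes were kept by filterByExpr (18716) and tested with edgeR 4.0.16's quasi-likelihood test (R 4.3.3), with TMM factors, robust dispersion, genotype as the only term, two-sided, and Benjamini-Hochberg adjustment over all tested genes at 0.05. Log2 SDs used log2(CPM + 0.5). A floor of 3 counts equals 0.119 to 0.303 CPM, for counting error only. Alternatives used limma 3.58.1 and DESeq2 1.42.0. The test was also run on counts simulated with means and dispersions taken from these libraries, and no result here rests on that run.

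The members and lists were chosen with earlier results of these data known. Named were the mitophagy and Atg8 genes, members with an unadjusted p under 0.05 or without overlap, the 5 with most counts per length, the 3 of largest and of smallest spread, and, per further list, genes that passed or else the 2 of smallest p. Values per library of Tfe3, Ulk1, Rb1cc1, Atg101, Atg9a and Atg4b fall outside this rule and were picked out after they were seen. GENCODE M21 and RefSeq (GRCm38.p6) differ in build from mm39.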

Additional observations from a re-analysis of the deposited data

How the results depend on the processing

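Across 15 other settings of scaling, filter, test, replicate block and libraries, 0 members passed the threshold in any, and the members' median log2 fold change stayed between -0.035 and -0.0022. For all genes, beside 2, there were 44 calls with no filter, 6 with DESeq2, 41 with the replicate block and 1 each with robust=FALSE and limma-voom; leaving out a library gave 1 to 32 (32 without WT replicate 3, 9 lacking Top3b-KO replicate 1, 2 lacking its replicate 3, and 1 for each other). Among further pathway genes, beside 1 call (Clec16a), there were 0 with robust=FALSE and with limma-voom, and 0 to 1 on leaving out a library, 1 only without WT replicate 3. Named members gave 300 values, 13 of them with the other sign, all on leaving out a library. Their lowest and highest log2 fold changes with a library left out were -0.29 and 0.086 for Map1lc3a, -0.23 and 0.052 for Gabarapl1, -0.022 and 0.11 for Gabarapl2, -0.0015 and 0.095 for Bnip3l, -0.079 and 0.041 for Sqstm1, -0.17 and 0.064 for Pink1, -0.092 and 0.0045 for Rnf41, -0.042 and 0.0047 for Ulk2, and -0.029 and 0.0042 for Atg16l1. Without WT replicate 1 the sign changed for Map1lc3a, Gabarapl1, Gabarapl2, Bnip3l and Sqstm1. The cause was not tested. With the replicate block Tfeb had a log2 fold change of -0.26 and an adjusted p of 0.24 by edgeR, and no member's call changed. The correlations between same-numbered libraries' deviations were 0.185, -0.014 and 0.014, so the numbers were not taken to pair libraries. Counts per library were lowest for Bnip3 (23 to 57) and Wipi1 (36 to 66), whose intervals reached past 1.5-fold. Their within-genotype SDs on the log2 scale were 0.064 for Bnip3 and 0.26 for Wipi1 (members' median 0.087). Whether depth or spread between libraries sets the width of these intervals was not tested.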
